A study of Mus musculus with 18 samples.

Results

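Transcripts of 8 transcription factors that direct the making and the state of myeloid cells were followed in mouse bone marrow macrophages: Spi1 (which encodes PU.1), Cebpa, Cebpb, Cebpd, Maf, Runx1, Mitf and Bach2. The genes were taken by symbol, and all 8 were among the 12393 genes measured, on 15 probe sets in all. Values are log2 signals of Affymetrix arrays, so a difference of 1 is a 2-fold change. The macrophages had been grown from the marrow of C57BL/6 mice aged 4 to 6 weeks, in medium conditioned by L929 cells, and were studied in 6 groups of 3 arrays. CON cells had plain medium and no lipopolysaccharide (LPS). Silica cells stood for 24 h with amorphous silica particles of 50 nm and SPIO cells for 24 h with iron oxide particles of 33 nm, each at a concentration that the labels give as 25 mg/ml, a unit that is in doubt, since µg/ml would be the more usual one in cell culture. The particles were then removed and fresh medium without LPS was added. LPS cells had no particle and were given 10 ng/ml of LPS, a component of bacterial walls, for 4 h, and Silica-LPS and SPIO-LPS cells had the particle first and then the same LPS. Replicates are described as biological, with no word on separate animals, and p-values rest on the spread from culture to culture. For plating, the cells were moved to medium without the L929 supernatant.

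PU.1, RUNX1 and C/EBPα are factors that work early in blood formation. PU.1 and C/EBPα open the genes of the monocyte and granulocyte lines, and PU.1 stays necessary for the mature macrophage. C/EBPβ and C/EBPδ are related factors of the same bZIP family that are known to be induced in inflammation and to bind the promoters of cytokine and acute-phase genes. MAF is tied to the quiescent, resident-like macrophage and to Il10. MITF drives lysosomal and osteoclast genes in the monocyte line, and BACH2 is a repressor of the bZIP type, best known in lymphocytes, that shares binding sites with BACH1 and MAF proteins.

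By RefSeq on build GRCm38.p6, Spi1 lies at chr2:91082374-91115759 and Cebpb on the same chromosome at chr2:167688915-167690432. Cebpa, at chr7:35119293-35121928, and Cebpd, at chr16:15887286-15889545, are short genes like Cebpb. Runx1 (chr16:92601466-92826074), Mitf (chr6:97807002-98021360) and Bach2 (chr4:32238413-32586109) span 224609, 214359 and 347697 bases, and Maf lies at chr8:115703253-115706894.

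Of the 10 macrophage markers listed, 9 were measured, and their means in CON ran from 9.33 for the integrin gene Itgam to 14.4 for the lysozyme gene Lyz2. Array medians were between 6.23 and 6.43. Arrays of 1 group correlated at 0.997 or more over all probe sets. The cultures also gave signals for genes of other cells, with means in CON of 13.1 for the neutrophil gene S100a8 and 13.5 for the fibroblast gene Col1a2. In whole cultures, fewer cells of a type and less RNA per cell cannot be told apart.

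The regulatory sequence before the transcription start is shown for Cebpa and Cebpb, related genes that LPS moved in opposite directions, and for the 3 starts of Mitf, whose 2 probe sets went different ways after particles. Each run holds the 250 bases before a start listed by RefSeq on build GRCm38.p6, all on the + strand, 5′ to 3′. Start sites of 5 of the 8 genes were matched (1 each for Cebpa, Cebpb and Bach2, 2 for Runx1 and 3 for Mitf). Capitals mark the letters TATAAA and TGACG on either strand. The first is the pattern of a TATA box. The second is the core of a cyclic AMP response element, to which factors of the CREB and ATF kind are known to bind.
Cebpa, chr7:35119043-35119292: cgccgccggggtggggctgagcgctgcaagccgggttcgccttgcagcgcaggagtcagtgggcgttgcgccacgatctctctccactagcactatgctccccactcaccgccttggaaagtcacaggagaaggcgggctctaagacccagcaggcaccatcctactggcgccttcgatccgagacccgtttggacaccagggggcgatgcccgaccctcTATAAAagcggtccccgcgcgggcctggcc
Cebpb, chr2:167688665-167688914: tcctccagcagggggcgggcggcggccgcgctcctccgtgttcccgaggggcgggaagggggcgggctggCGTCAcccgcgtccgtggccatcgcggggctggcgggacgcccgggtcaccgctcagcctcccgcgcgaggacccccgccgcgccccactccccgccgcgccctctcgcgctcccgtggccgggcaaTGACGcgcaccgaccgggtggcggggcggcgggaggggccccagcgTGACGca
Mitf start 1, chr6:97806808-97807057: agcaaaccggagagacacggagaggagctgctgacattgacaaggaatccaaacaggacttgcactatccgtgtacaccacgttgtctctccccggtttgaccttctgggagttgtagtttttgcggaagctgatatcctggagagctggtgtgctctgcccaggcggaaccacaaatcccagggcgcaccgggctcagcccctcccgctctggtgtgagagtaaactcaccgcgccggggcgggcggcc
Mitf start 2, chr6:97929567-97929816: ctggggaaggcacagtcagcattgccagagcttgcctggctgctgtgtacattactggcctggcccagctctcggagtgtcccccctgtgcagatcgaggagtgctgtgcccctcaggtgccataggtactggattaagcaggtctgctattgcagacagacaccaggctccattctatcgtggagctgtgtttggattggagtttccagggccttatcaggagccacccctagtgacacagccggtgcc
Mitf start 3, chr6:97991533-97991782: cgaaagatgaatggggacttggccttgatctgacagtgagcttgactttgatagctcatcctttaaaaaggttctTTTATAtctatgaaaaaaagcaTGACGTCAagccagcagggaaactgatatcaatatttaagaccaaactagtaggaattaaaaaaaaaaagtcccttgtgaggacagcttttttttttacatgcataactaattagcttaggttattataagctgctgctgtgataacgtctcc

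The Cebpa window held 1 match to TATAAA, at positions -30 to -25 from the start, and none to TGACG. The Cebpb window held 3 matches to TGACG, the nearest at positions -7 to -3, and none to TATAAA. In the window of Mitf start 3, 2 overlapping matches to TGACG on opposite strands formed TGACGTCA. TATAAA lay there on the opposite strand at positions -175 to -170, farther from the start than in the Cebpa window. Which of the Mitf starts these macrophages used was not analysed. Over all 32851 windows of this length in the table, 12.4% held TATAAA and 17.8% held TGACG. TTGCNNAA, the C/EBP pattern searched, was in 9.56% of all windows and in that of Mitf start 1 (TTGCGGAA), and in none of the other windows shown. A match is a run of letters and was not tested as a site.

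**Figure D1:**
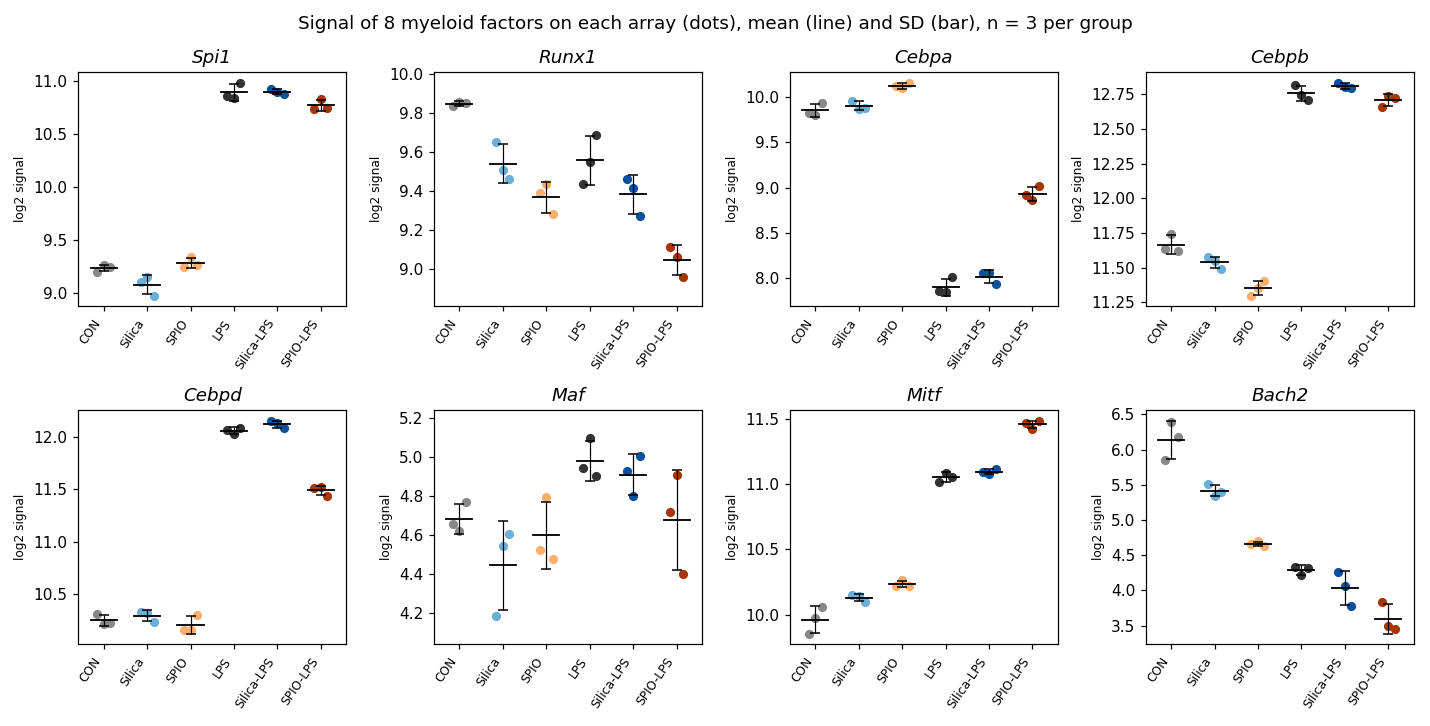
Log2 signal (vertical axes, a separate range for each gene) of the 8 genes on the 18 arrays, by group. Dots are arrays, lines are group means and bars are SD (n = 3). Spi1, Cebpb, Cebpd and Mitf stand higher and Cebpa lower in all 3 groups with LPS, while Bach2 runs from a mean of 6.14 in CON to 3.59 in SPIO-LPS.

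LPS alone moved 7 of the 8 factors, against 58.2% of all genes tested (22.2% higher and 36.1% lower). Spi1, Cebpb, Cebpd and Mitf rose, Cebpa, Bach2 and Runx1 fell, and Maf did not pass. The median size of the difference, whatever its sign, was 1.38 for the 8 genes and 0.26 for all genes. Arrays of the LPS and CON groups did not overlap for any of the 8, nor for 63.3% of all genes.

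Spi1 encodes PU.1, the ETS factor that marks macrophage enhancers. Its log2 signals were 9.20, 9.26 and 9.24 in CON and 10.86, 10.84 and 10.99 in LPS. The arrays with LPS were all higher, and the rise was 3.17-fold (1.66 ± 0.053 SE on the log2 scale, limma adjusted p = 1.21e-13, n = 3 per group). Spi1 kept this split after the particles, with 10.93, 10.89 and 10.88 in Silica-LPS and 10.74, 10.83 and 10.74 in SPIO-LPS. Without LPS it stood at 9.10, 9.15 and 8.97 in Silica and at 9.24, 9.33 and 9.26 in SPIO.

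Neither particle gave a called change of Spi1 against its own control. The difference was -0.16 in Silica against CON (adjusted p = 0.123) and 0.048 in SPIO against CON (adjusted p = 0.531), with 95% intervals of -0.27 to -0.043 and -0.064 to 0.16. In SPIO-LPS against LPS it was -0.13 (adjusted p = 0.0839), and no array of SPIO-LPS reached the lowest of LPS. With a variance trend both negative differences were called (adjusted p = 0.0357 for Silica and 0.0331 for SPIO-LPS). The second was also called with cyclic loess scaling (-0.16, adjusted p = 0.0255) and without the dimmest genes (adjusted p = 0.0478).

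Runx1 encodes the DNA-binding part of core binding factor, which sets up blood stem cells and later tunes PU.1. It was measured by 5 probe sets, and the brightest gave 9.83, 9.86 and 9.85 in CON, 9.65, 9.51 and 9.46 in Silica, and 9.39, 9.43 and 9.28 in SPIO. The CON arrays were the highest of all 6 groups and the 3 SPIO arrays lay below those of Silica. Under LPS the signals were 9.43, 9.55 and 9.69, in Silica-LPS 9.46, 9.42 and 9.27, and in SPIO-LPS 9.11, 9.06 and 8.96, the lowest of all.

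On that probe set Runx1 fell under LPS (-0.29, adjusted p = 0.00248), after silica (-0.31, adjusted p = 0.0264) and after iron oxide (-0.48, adjusted p = 8.44e-05). In the order of its levels, CON and SPIO-LPS stood apart at the ends, while neighbours among LPS, Silica, Silica-LPS and SPIO were not called different. With LPS, iron oxide lowered it by a like amount (-0.51 ± 0.072, adjusted p = 4.19e-05), and the interaction was -0.034 (95% interval -0.25 to 0.18). The fall under LPS was not called with cyclic loess scaling (-0.12, adjusted p = 0.185). The fall after silica was lost without CON array 1, 2 or 3 (adjusted p = 0.065, 0.0944 and 0.0704) or Silica array 2 or 3 (0.0823 and 0.119), in a fit on CON and Silica alone (0.0788), and with the 5 probe sets averaged (-0.19, adjusted p = 0.11).

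The other 4 Runx1 probe sets did not all follow. Probe set 1427650_a_at was called higher under LPS (0.40 ± 0.10, limma adjusted p = 0.00323 over all probe sets), the opposite of the brightest, 1422864_at. After iron oxide all 5 had negative differences and 2 were called, 1422864_at and 1452531_at (-0.57 ± 0.13, adjusted p = 0.00251). So the direction of Runx1 under LPS depends on the probe set read, and the mean of the 5 gave 0.022 (adjusted p = 0.785).

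Cebpa encodes C/EBPα, a factor of granulocyte and monocyte commitment that also slows cell division. Its signals were 9.82, 9.80 and 9.93 in CON and 7.86, 7.84 and 8.01 in LPS, with no overlap. This was a fall of 3.85-fold (-1.95 ± 0.058, adjusted p = 5.78e-14). Silica left the values close to these, at 9.96, 9.86 and 9.88 without LPS and 8.05, 8.06 and 7.94 with it. SPIO arrays gave 10.11, 10.09 and 10.16, above every CON array, and SPIO-LPS arrays gave 8.91, 8.87 and 9.01, between the groups with and without LPS.

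After iron oxide Cebpa was thus higher both without LPS (0.27 ± 0.058, adjusted p = 0.00178) and with it (1.03 ± 0.058, 2.04-fold, adjusted p = 2.42e-09). The fall under LPS was 2.28-fold in iron oxide cells, 3.69-fold in silica cells and 3.85-fold with no particle. The interaction of iron oxide with LPS was 0.75 ± 0.083 (adjusted p = 1.82e-05), and that of silica was 0.064 (95% interval -0.11 to 0.24, adjusted p = 0.925). SPIO-LPS also differed from Silica-LPS, by 0.91 ± 0.058 (adjusted p = 1.52e-08).

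Cebpb encodes C/EBPβ, which is needed for full induction of many cytokine genes. The signals were 11.64, 11.74 and 11.62 in CON, 11.57, 11.55 and 11.49 in Silica, and 11.30, 11.36 and 11.40 in SPIO. Both particle groups lay below every CON array, and the fall was called for iron oxide (-0.31 ± 0.047, adjusted p = 7.8e-05) and not for silica (-0.13, adjusted p = 0.153). With LPS the signals drew together, at 12.81, 12.75 and 12.71 in LPS, 12.83, 12.81 and 12.79 in Silica-LPS and 12.66, 12.74 and 12.72 in SPIO-LPS.

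LPS raised Cebpb 2.13-fold with no particle (1.09 ± 0.047, adjusted p = 5.62e-12), 2.41-fold after silica and 2.56-fold after iron oxide. The interaction with iron oxide was 0.26 ± 0.066 (adjusted p = 0.0186). It was lost without CON array 2 (0.23, adjusted p = 0.0524), without SPIO array 1 (0.24, adjusted p = 0.0503) and in a fit on CON, LPS, SPIO and SPIO-LPS alone (adjusted p = 0.0583). The other Cebpb probe set, 1427844_a_at, rose more under LPS (1.76 ± 0.063, adjusted p = 5.85e-13) and did not give a called interaction (0.21 ± 0.088, adjusted p = 0.211). It had the same fall after iron oxide (-0.29, adjusted p = 0.00185).

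Cebpd encodes C/EBPδ, a factor induced early by inflammatory signals. Without LPS the 3 groups overlapped, at 10.31, 10.21 and 10.22 in CON, 10.33, 10.32 and 10.24 in Silica and 10.16, 10.16 and 10.30 in SPIO. With LPS the signals were 12.07, 12.02 and 12.08, in Silica-LPS 12.15, 12.13 and 12.08, and in SPIO-LPS 11.51, 11.52 and 11.44. Only the SPIO-LPS arrays stood below the others with LPS.

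The rise of Cebpd under LPS was 3.50-fold with no particle (1.81 ± 0.049, adjusted p = 1.55e-14), 3.54-fold after silica and 2.43-fold after iron oxide. SPIO-LPS fell below LPS by 0.57 ± 0.049 (adjusted p = 2.35e-07), and the interaction was -0.53 ± 0.069 (adjusted p = 0.000118). The dimmer probe set 1456605_at, with signals from 5.24 to 6.71, was also lower in SPIO-LPS than in LPS (-0.37, adjusted p = 0.000688). It was already lower in SPIO than in CON (-0.29, adjusted p = 0.0039), and its interaction was -0.075 (adjusted p = 0.765). On both probe sets Cebpd under LPS was therefore lower after iron oxide, while a weaker response to LPS was called on the brighter one only.

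**Figure D2:**
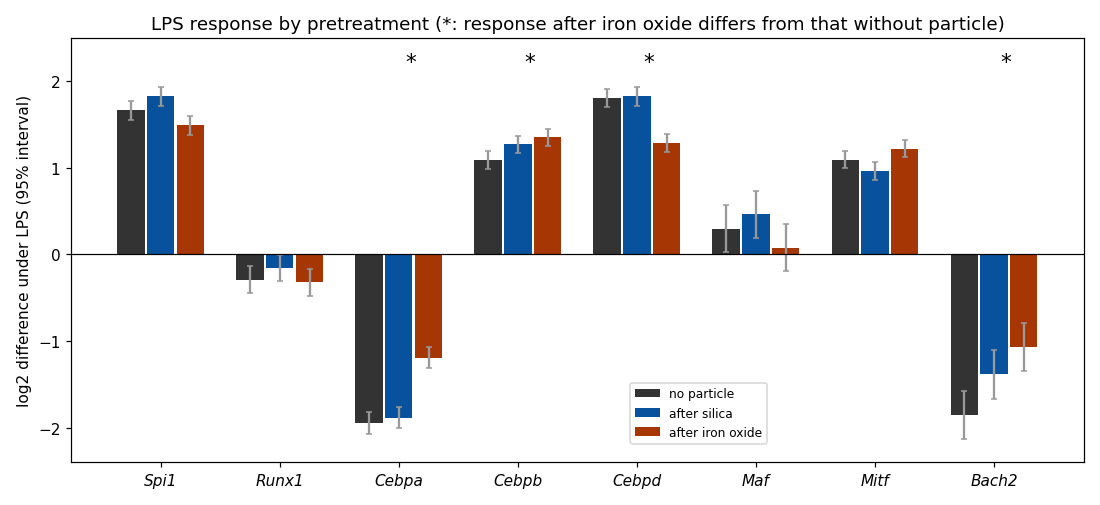
Bars give the log2 difference between cells with and without LPS (vertical axis) for each gene, with no particle, after silica and after iron oxide, and whiskers are 95% intervals from limma (n = 3 per group). Stars mark the 4 genes whose response after iron oxide differed from that without particle, with interactions of 0.75 for Cebpa, 0.26 for Cebpb, -0.53 for Cebpd and 0.78 for Bach2.

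Maf, which encodes c-MAF, was read by 1 probe set near the lower end of the scale, between 4.18 and 5.10 on all arrays, where the lowest value of any probe set was 2.03. The signals were 4.66, 4.62 and 4.77 in CON and 4.95, 5.10 and 4.90 in LPS, which did not overlap, and the difference was 0.30 ± 0.13 (adjusted p = 0.0557). It was called after centring arrays on their medians (0.43, adjusted p = 0.0133), which raises the median gene by 0.13 in LPS against CON. It was also called with array weights (0.32, adjusted p = 0.0328) and in a fit on the LPS and CON arrays alone (0.30, adjusted p = 0.00794).

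Silica arrays for Maf were 4.18, 4.54 and 4.61 and Silica-LPS arrays 4.93, 4.80 and 5.01, a called rise of 0.46 ± 0.13 (adjusted p = 0.0051). SPIO arrays were 4.53, 4.80 and 4.48 and SPIO-LPS arrays 4.72, 4.91 and 4.40, which overlapped (0.077, adjusted p = 0.613). Neither interaction was called for Maf, with 0.17 for silica (95% interval -0.22 to 0.55) and -0.22 for iron oxide (-0.61 to 0.16). In the order of Maf levels no pair of neighbouring groups was called different. The annotation names 1 probe set for Maf, so its level rests on that dim signal.

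Mitf encodes a bHLH-zip factor of the TFE family and is transcribed from several starts. The brighter of its 2 probe sets, 1455214_at, had CON signals of 9.85, 9.98 and 10.05, Silica signals of 10.15, 10.14 and 10.10 and SPIO signals of 10.22, 10.26 and 10.22. Each particle group lay above every CON array. With LPS it gave 11.02, 11.09 and 11.06, in Silica-LPS 11.09, 11.08 and 11.11, and in SPIO-LPS 11.47, 11.43 and 11.48, the highest of all groups.

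On this probe set Mitf rose 2.13-fold under LPS (1.09 ± 0.047, adjusted p = 5.4e-12). It rose after iron oxide both without LPS (0.27 ± 0.047, adjusted p = 0.000271) and with it (0.40 ± 0.047, adjusted p = 5.87e-06), and the interaction was 0.13 (95% interval -0.011 to 0.27). For silica the differences were 0.17 (adjusted p = 0.057) without LPS and 0.041 (adjusted p = 0.717) with it. The silica difference was called with array weights (0.17, adjusted p = 0.0265), with a variance trend (adjusted p = 0.00692), without the dimmest genes (adjusted p = 0.0244) and without CON array 3 (0.22, adjusted p = 0.0233).

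The second Mitf probe set, 1422025_at, shared the rise under LPS (1.05 ± 0.14, limma adjusted p = 9.03e-06 over all probe sets) and went the other way after particles. It was lower in Silica than in CON (-0.55 ± 0.14, adjusted p = 0.0489) and in SPIO than in CON (-0.42 ± 0.14, adjusted p = 0.0362). With LPS its particle differences were -0.31 (adjusted p = 0.317) and -0.22 (adjusted p = 0.281). Which of the 3 starts printed above, or which exons, each probe set reads was not analysed here. The direction of Mitf after particles therefore holds for 1 probe set and not for the gene as a whole, and the mean of both gave -0.071 for SPIO against CON (adjusted p = 0.539) and 0.091 for SPIO-LPS against LPS (adjusted p = 0.443). For SPIO-LPS against Silica-LPS it gave 0.22 (adjusted p = 0.0532), where the brighter one alone gave 0.36 (adjusted p = 2.74e-05).

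**Figure D3:**
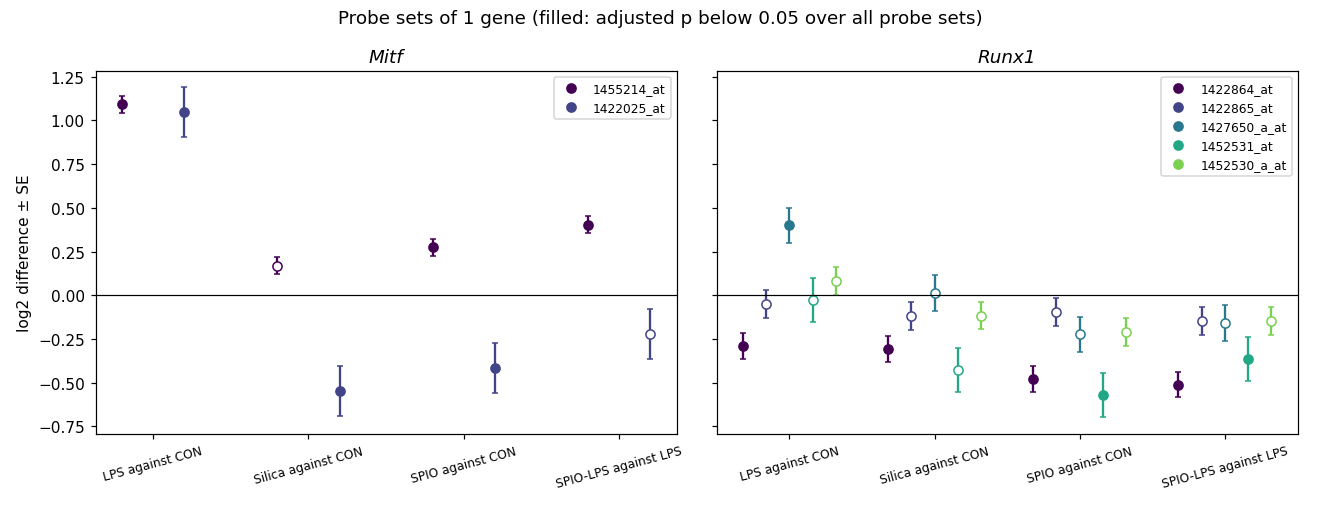
Log2 differences ± SE (vertical axis) of the 2 probe sets of Mitf and the 5 of Runx1 in 4 comparisons, with filled dots where the adjusted p over all probe sets was below 0.05. Both Mitf probe sets lie near 1 under LPS and on opposite sides of 0 after either particle, and 1427650_a_at of Runx1 stands at 0.40 under LPS where 1422864_at stands at -0.29.

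Bach2 had the largest particle effects of the 8 genes in cells without LPS. Its signals were 5.86, 6.39 and 6.18 in CON, 5.51, 5.35 and 5.40 in Silica and 4.66, 4.70 and 4.63 in SPIO. The 3 groups did not overlap and stood in that order. With LPS the signals were 4.34, 4.21 and 4.32, in Silica-LPS 4.26, 4.06 and 3.78, and in SPIO-LPS 3.84, 3.49 and 3.46.

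The mean of Bach2 stood at percentile 47.6 of all probe sets in CON, 31.6 in SPIO, 25.1 in LPS and 15.04 in SPIO-LPS. Without detection calls it is not known whether the lower of these levels are above background, so the differences below may understate the falls and are not given as folds. Bach2 fell after silica (-0.72 ± 0.13, adjusted p = 0.00603), after iron oxide (-1.48 ± 0.13, adjusted p = 3.71e-07) and under LPS (-1.85 ± 0.13, adjusted p = 3.54e-09). SPIO stood below Silica (-0.76 ± 0.13, adjusted p = 0.000478). With LPS, SPIO-LPS was lower than LPS (-0.69 ± 0.13, adjusted p = 0.000682), while Silica-LPS against LPS was -0.25 (adjusted p = 0.358). The silica fall gave an adjusted p of 0.0555 in a fit on CON and Silica alone.

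The LPS fall of Bach2 was smaller after iron oxide (-1.07) than without particle, with an interaction of 0.78 ± 0.19 (adjusted p = 0.0136). For silica the interaction was 0.47 ± 0.19 (adjusted p = 0.639). SPIO-LPS and Silica-LPS differed by -0.44 (adjusted p = 0.022), but their arrays overlapped, and the call was lost without Silica-LPS array 1 or 2 (adjusted p = 0.112 and 0.0613) or SPIO-LPS array 2 or 3 (0.0803 and 0.087), and in a fit on both groups alone (0.0861). The Bach2 signals with LPS ran from 3.46 to 4.34, where the lowest of any probe set was 2.03. The part of this low level in the smaller fall was not tested.

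Across the 8 genes, silica changed 2 (Runx1 and Bach2, both lower), against 4.02% of all genes (2.45% higher and 1.57% lower). The arrays did not overlap for 6 of the 8 and for 24.9% of all genes. Iron oxide changed 5, with Cebpa and Mitf higher and Cebpb, Runx1 and Bach2 lower, against 33.8% of all genes (19.6% higher and 14.2% lower). Mitf was higher on its brighter probe set and lower on the other, as above. The arrays did not overlap for those 5, nor for 47.6% of all genes.

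With LPS the iron oxide count was again 5 (Cebpa and Mitf higher, Cebpd, Runx1 and Bach2 lower), against 32.7% of all genes (18.2% higher and 14.6% lower). Mitf was called there on its brighter probe set only. Spi1 joined the 5 called genes as the sixth without overlap of arrays, against 40.4% of all genes. Silica-LPS against LPS gave 0 calls by limma, against 2.86% (1.89% higher and 0.976% lower), with 1 gene (Runx1) at an unadjusted p below 0.05. No member was without overlap there, against 21.9% of all genes. The 95% intervals there bound the change of Spi1 within -0.11 and 0.12, and that of Bach2 within -0.53 and 0.03.

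SPIO against Silica gave 4 calls without LPS (26.1% of all genes were called, 14.6% higher and 11.6% lower), namely Spi1 (0.20, adjusted p = 0.00928) and Cebpa (0.22) higher, and Cebpb (-0.19) and Bach2 lower. Arrays were apart for 6 members and for 40.5% of all genes. The call of Spi1 was lost without Silica array 3 (0.15, adjusted p = 0.056) and in a fit on both groups alone (adjusted p = 0.059). The other Cebpb probe set, 1427844_a_at, was not called there (-0.14, limma adjusted p = 0.12 over all probe sets). With LPS there were 5 calls, with Cebpa and Mitf higher in SPIO-LPS and Cebpd, Runx1 and Bach2 lower (25.1% of all genes, 12.2% higher and 12.9% lower), and arrays were apart for 6 members and 40% of all genes. Runx1 and Mitf were called there on their brightest probe sets only. The mean of the Runx1 probe sets gave -0.10 (limma adjusted p = 0.264).

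LPS changed 7 of the 8 also in silica cells, all but Runx1, against 57.3% of all genes (21.5% higher and 35.8% lower). In iron oxide cells it changed 7, all but Maf, against 64.1% (27.3% higher and 36.7% lower). For Runx1 these calls hold for its brightest probe set, which was lower in SPIO-LPS than in SPIO (-0.32). Its probe set 1427650_a_at was called higher under LPS after silica (0.31, limma adjusted p = 0.0181 over all probe sets). The same was so after iron oxide (0.46, adjusted p = 0.000915). In both settings arrays were apart for 7 members, against 63.4% and 65.8% of all genes. Comparisons with CON, with LPS or with a particle group share those arrays.

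The interaction of iron oxide with LPS was called for 4 of the 8 genes, against 8.8% of all genes (3.73% upward and 5.07% downward): Cebpa, Cebpb and Bach2 upward and Cebpd downward. That of silica was called for 0 by limma, against 0.0161% (0.00807% in each direction), and 3 genes (Spi1, Cebpb and Bach2) had an unadjusted p below 0.05. On the brightest probe sets, after iron oxide the LPS response of Cebpa was 61.2% of that without particle on the log2 scale and that of Cebpd 70.9%, while that of Cebpb was 124%. The other probe sets of Cebpb and Cebpd gave no called interaction, as above, and differences among the 3 genes were not tested.

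**Figure D4:**
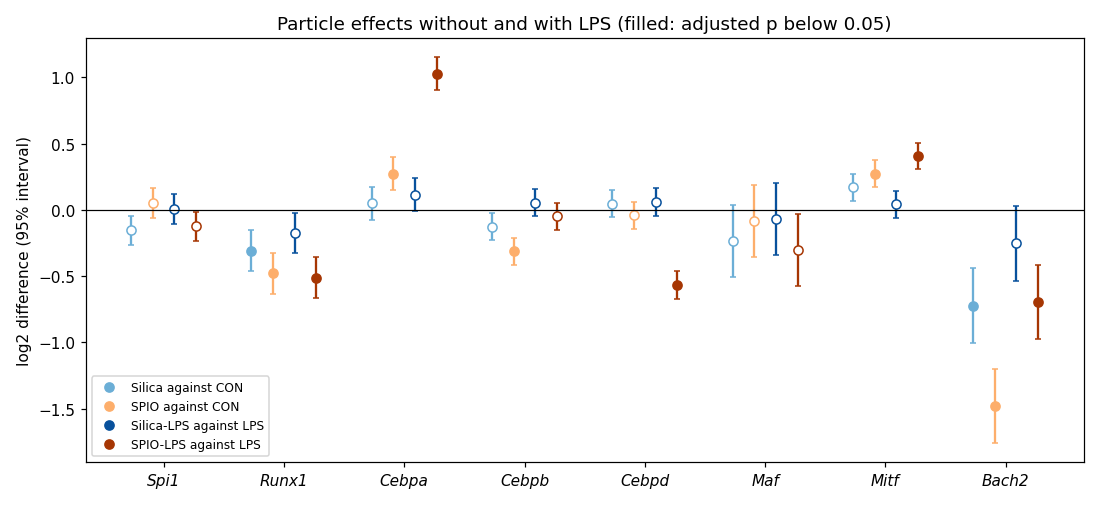
Log2 differences with 95% intervals (vertical axis) for silica and iron oxide against their controls without and with LPS, with filled dots for an adjusted p below 0.05. Runx1 and Bach2 lie below 0 in all 4 comparisons, Cebpa after iron oxide stands at 0.27 without LPS and 1.03 with it, and every silica difference under LPS is an open dot.

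Over the 18 arrays, Spi1, Cebpb and Cebpd followed each other closely (Pearson r of 0.970 to 0.980), and Cebpa ran against them (r = -0.984 with Cebpd). Runx1 went with Bach2 (r = 0.847). These values describe arrays that share the LPS split. The genes most like Spi1 over the 18 arrays were Susd6, Etnk1 and Tnfsf9 (r = 0.997 each), and 789 genes exceeded 0.95, so likeness to Spi1 was common. Bach2 was most like Stab1, Cd300ld and Crip1 (r = 0.983, 0.978 and 0.978), with 51 genes over 0.95. Runx1 had only 2 genes over 0.95, Iffo2 (r = 0.962) and Itgam (r = 0.955), and its next was Snx6. Nearest to Mitf were Prdm1, Rab10 and Mfsd14b, to Cebpa Wdr81, Dapk1 and Vps26c, to Cebpb Irf7, Ifit3 and Mndal, and to Cebpd Gpr31b, Pgap2 and Tspo, with r from 0.991 to 0.997. Maf came no closer to any gene than 0.846 (Nrarp), followed by Bmp8a and Ttc16.

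Of 34 related and partner factors listed, 29 were measured. LPS raised 15 and lowered 8, where it raised 22.2% and lowered 36.1% of all genes, with a median of 0.25 against -0.014 over all genes, and the ETS factors moved most: Ets2 by 2.61 ± 0.055, Etv6 by 1.48, Fli1 by -1.87, and the PU.1 relative Spic by 1.58. Iron oxide under LPS raised 8 and lowered 5, against 18.2% and 14.6% of all genes. Irf8, which binds together with PU.1, was lower there (-0.96 ± 0.055, adjusted p = 2.84e-09), while the MITF relative Tfec (0.90 ± 0.055) and the small MAF genes Mafg (0.93) and Maff (0.73) were higher. Irf8 had an interaction of -1.24 ± 0.078 (adjusted p = 9.62e-08). Silica alone lowered 2 of the 29, Ets2 (-0.21) and Nr4a1 (-0.33), against 1.57% of all genes.

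Known PU.1 or RUNX1 targets went both ways. Of 26 measured, LPS raised 12 and lowered 11 (median 0.061), where 58.2% of all genes were called, with the Fc receptor gene Fcgr1 at 2.03 ± 0.06 and Tlr2 at 2.02. Iron oxide raised 8 and lowered 12 (median -0.056 against -0.0066 over all genes), where 33.8% of all genes were called. The largest of these changes were Fcgr1 at -0.85 ± 0.06, Cd14 at -0.80, Cybb at 0.57 and Itgam at -0.55. Silica raised 2, Csf3r and Tlr4, and lowered 1, Csf2rb, where 4.02% of all genes were called.

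Known C/EBP targets, many of them LPS-induced cytokines, rose in 21 of 24 cases under LPS and fell in 2 (median 2.51), where 22.2% of all genes rose and 36.1% fell. Iron oxide under LPS lowered 13 and raised 3, against 14.6% and 18.2% of all genes (median -0.51 against 0.0099), with Il10 at -1.96 ± 0.13, the plasminogen activator inhibitor Serpinb2 at -1.06 and haptoglobin (Hp) at -0.83, and the protease inhibitor Slpi at 2.24 ± 0.083. Silica under LPS changed 2, Arg1 (0.98 ± 0.19) and Slpi (0.69), both upward, where 2.86% of all genes were called. Silica alone raised 5 and lowered 2 of the 24, against 2.45% and 1.57% of all genes. The largest changes there were Arg1 (0.84), Ccl2 (-0.83), Saa3 (0.79) and Slpi (0.52). Without LPS, iron oxide raised 8 and lowered 12, against 19.6% and 14.2% of all genes. Its largest effects there were on Slpi (1.61), Il1b (-1.51), Ccl3 (0.99) and Lcn2 (-0.86).

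Known MITF or TFE family targets were lowered by LPS in 10 of 21 cases and raised in 6, where 58.2% of all genes were called. Iron oxide raised 12 and lowered 1 without LPS (median 0.27 against -0.0066 over all genes), and raised 13 and lowered 1 with it (median 0.29 against 0.0099). Of all genes, 19.6% and 18.2% were raised in these comparisons. The autophagy receptor Sqstm1 was higher by 0.75 without and 1.70 ± 0.045 with LPS, the lysosomal enzyme Gla by 1.24 and 0.84, and the lysosomal channel Mcoln1 by 0.79 in both. In SPIO against Silica 11 were higher and 1 lower (Acp5, -0.62), against 14.6% and 11.6% of all genes. In SPIO-LPS against Silica-LPS 12 were higher and 1 lower (Acp5, -0.63), against 12.2% and 12.9%. Silica alone raised 4 (Ctsk, Gla, Mcoln1 and Atp6v1h), by 0.20 to 0.29, and under LPS it raised 4 (Flcn, Sqstm1, Ctsk and Ctsd), where 2.45% and 1.89% of all genes were raised.

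Of 11 known BACH targets, LPS alone raised 5 and lowered 3 (median 0.076), where 22.2% of all genes rose and 36.1% fell. The largest changes there were Slc7a11 at 4.70, the iron exporter gene Slc40a1 at -3.64, Prdm1 at 1.61 and Gclc at -0.997. Iron oxide raised 11 without LPS (median 0.63) and 10 with it (median 1.40), against 19.6% and 18.2% of all genes. Its largest effects under LPS were on Slc40a1 (2.79 ± 0.095) and the sulfiredoxin gene Srxn1 (2.31). Silica alone changed 0 of the 11 by limma, where 4.02% of all genes were called, with 4 at an unadjusted p below 0.05. Under LPS it raised 1, Srxn1, where 1.89% of all genes were raised. The list was not split into targets of BACH2 and of BACH1. The part of the fall of Bach2 in these changes was not tested. The target lists share members.

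Cell type markers moved in the iron oxide groups, where 14.2% of all genes were lower in SPIO than in CON and 14.6% in SPIO-LPS than in LPS. Of 9 macrophage markers 6 were lower in SPIO, led by Aif1 (-1.09 ± 0.05), and 2 were higher, while 4 were lower and 2 higher in SPIO-LPS. Of 8 B cell markers 4 were lower in SPIO, among them Ebf1 (-0.46), and 1 was higher (Blnk, 0.42), while 2 were lower in SPIO-LPS, among them Ebf1 (-0.80), and 1 was higher. LPS alone lowered 3 of these 8, against 36.1% of all genes. The summed B cell signal, taken as log2 of summed linear signals, ran from 10.65 to 10.76 in CON arrays, 11.002 to 11.038 in SPIO, 10.06 to 10.12 in LPS and 10.55 to 10.59 in SPIO-LPS. This sum mostly reads Blnk, with means of 10.44 in CON and 10.86 in SPIO. The next brightest of the 8, Ebf1, stood at 6.78 and 6.32, so the sum does not stand for the list. Igll1 (6.09), Cd79b (4.84), Vpreb1 (4.29), Pax5 (4.16), Cd79a (4.03) and Ms4a1 (3.89) lay below the array medians in CON. Whether they are above background is not known, so these counts are not given as a change in B cells.

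Of 8 neutrophil markers measured 7 were lower in SPIO than in CON and 6 in SPIO-LPS than in LPS. Their summed signal ran from 14.36 to 14.45 in CON arrays, 14.20 to 14.38 in Silica and 13.84 to 13.89 in SPIO. Under LPS it ran from 14.29 to 14.33 without particle and 13.85 to 13.88 in SPIO-LPS. Of 10 fibroblast markers 5 were lower in SPIO and 6 in SPIO-LPS, and their sum ran from 14.34 to 14.38 in CON arrays, 14.49 to 14.58 in Silica and 14.14 to 14.17 in SPIO. With LPS it ran from 14.06 to 14.12 without particle and 13.81 to 13.86 in SPIO-LPS. Gapdh control probe sets, read as 3′ minus 5′ signal, stood at a mean of 0.69 in CON against 0.47 in SPIO, and 0.52 in LPS against 0.40 in SPIO-LPS. The same reading of Actb went the other way after iron oxide, from 0.59 in CON to 0.66 in SPIO and from 0.38 in LPS to 0.52 in SPIO-LPS. Under LPS alone both readings were lower than in CON. The part of these shifts in the changes of the 8 factors after iron oxide or under LPS was not tested.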

How the data were processed

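RNA of 18 cultures was labelled with biotin after oligo-dT priming and read on Affymetrix arrays, 1 per culture. The authors deposited log2 signals made by RMA, per the submitters' processing notes, with version and settings not given in the sources used here. Detection calls and counts do not come with them, and the number of arrays limits the precision. Of 22690 probe sets 64 were controls. The platform annotation gave 1 symbol for 20380, several for 691 and none for 1555, and 20351 symbols were updated through RefSeq gene identifiers. The probe set with the highest mean over all arrays stood for each of 12393 genes.

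All arrays entered 1 linear model of group means in limma 3.58.1 (R 4.3.3), with eBayes and Benjamini-Hochberg adjustment over all genes in each of 11 comparisons. A gene was called at an adjusted p below 0.05, and ± values of differences are standard errors of the model. The fit was tested on data simulated with each gene's own spread. Log2 changes of 0.25, 0.5 and 1 were recovered for 25.4%, 80.6% and 95.5% of changed genes in LPS against CON. For the interaction of iron oxide with LPS these were 16.4%, 49.3% and 93.9%, so changes of 0.25 were mostly missed in both. Each had 6 false calls. Silica comparisons were not simulated. Alternatives were the replicate number as a block, only the groups compared, eBayes with trend and robust options (here called a variance trend), no dim genes, averaged probe sets, cyclic loess, median centring, array weights and leaving out each array. Named genes were the 8 members, their deviating probe sets, at most 4 called genes per list and comparison by size of change, and the 3 most correlated genes per member. The CON levels of Lyz2, S100a8 and Col1a2, and the genes repeated across comparisons, were added after their values were seen. A further gene list was tested and is not reported here. Members and lists were chosen with earlier results of these data known. The labelled unit of the particle concentration could not be verified. Figures were drawn with Python 3.11.15 and matplotlib 3.10.9.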

Additional observations from a re-analysis of the deposited data

Results flagged for a closer look

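The response to LPS differed between cells with and without iron oxide for 4 of the 8 genes, against 8.8% of all genes, by a test of the difference itself. It passed for Cebpa (0.75, adjusted p = 1.82e-05), Cebpb (0.26, adjusted p = 0.0186), Cebpd (-0.53, adjusted p = 0.000118) and Bach2 (0.78, adjusted p = 0.0136), as log2 interactions from limma with 3 arrays per group. For Cebpb and Cebpd the other probe set gave 0.21 (adjusted p = 0.211) and -0.075 (adjusted p = 0.765). The Cebpb interaction was lost without CON array 2 (0.23, adjusted p = 0.0524), without SPIO array 1 (0.24, adjusted p = 0.0503) and in a fit on the 4 groups alone (adjusted p = 0.0583). The single Bach2 probe set was dim with LPS (3.46 to 4.34) and started lower in SPIO (mean 4.66) than in CON (mean 6.14), and the part of this in the smaller fall was not tested.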

How the results depend on the processing

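Leaving out each array in turn, the members called ranged from 7 to 7 for LPS against CON, 1 to 2 for Silica against CON, 5 to 6 for SPIO-LPS against LPS, 4 to 5 for SPIO-LPS against Silica-LPS and 3 to 4 for the interaction of iron oxide with LPS. With the replicate number as a replicate block, the counts were 7, 2, 5, 5 and 4, and no call of a member changed in any of the 11 comparisons. For Silica against CON (2 of 8 called) the count was 0 in a fit on those 2 groups alone, 5 with a variance trend and robust prior, and 1 with averaged probe sets. Averaging gave 3 in place of 5 for SPIO-LPS against Silica-LPS. Of 99 counts under other settings 95 stayed within 1.5 times. With averaged probe sets the sign turned for Runx1 in LPS against CON (0.022) and in SPIO-LPS against SPIO (0.073) and for Mitf in SPIO against CON (-0.071), and these were the only called values that turned in the 770 values of members under other settings and the 624 without an array. Another 10 and 9 uncalled values changed sign. Leaving out the dimmest 33.3% of genes removed Maf and Bach2. Same-numbered arrays of different groups deviated together (correlation over 0.1) in 8 of 45 pairs, so the numbers were not taken to pair arrays. Centring on array medians moved the median of all genes by 0.13 in LPS against CON and 0.16 in SPIO-LPS against SPIO. The fall of Runx1 in SPIO-LPS against SPIO gave -0.16 with cyclic loess (adjusted p = 0.0665).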
